A study of Caenorhabditis elegans with 50 samples.

Results

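Young adult Caenorhabditis elegans without a germline were compared with wild-type animals across all gene entries of a table of RNA sequencing fragments. The comparison used every library of the strain glp-1(e2141), 5 in number, and every wild-type (WT) library, also 5, which makes 10 of the 50 libraries in the series. The glp-1(e2141) animals were kept at 25 °C for 48 hours, a treatment that removes the germline in this strain. The WT animals spent 72 hours at 15 °C before they were moved to 20 °C. Both sets were synchronized, harvested on day 1 of adulthood and described as separate biological samples, and polyadenylated RNA of whole animals was sequenced. The further strains daf-16(mg54);glp-1(e2141) and daf-16(mu86);glp-1(e2141), with 5 libraries each, were also kept at 25 °C for 48 hours and carry the same glp-1 allele together with a mutation of daf-16. They are called the doubles here and are given beside the main comparison. No WT library at 25 °C was analysed here. Genotype, loss of the germline, culture temperature and library number therefore change together, and their parts in a difference cannot be told apart. The library numbers ran from 22921 to 22949 in the glp-1(e2141) libraries and from 28339 to 28367 in the WT libraries.

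GLP-1 is a Notch receptor on germ cells. A signal from the distal tip cell at the end of the gonad keeps it active, and active GLP-1 keeps germline stem cells dividing and out of meiosis. The allele e2141 is temperature sensitive: when larvae grow at the restrictive temperature the few germ cells that form enter meiosis early, and the adult has a somatic gonad with almost no germ cells. A WT hermaphrodite on the first day of adulthood holds a large germline with mitotic cells, meiotic cells, oocytes and stored sperm, as well as embryos in the uterus. Animals without germ cells live longer, and the FOXO transcription factor DAF-16 is needed for that.

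Depth was 15.83 to 20.71 (in units of 1e6 fragments assigned to named entries) in the glp-1(e2141) libraries, 13.82 to 23.81 in the libraries of the doubles and 21.08 to 34.25 in the WT libraries. Entries that name several genes took 25.4% to 26.7% of the fragments in glp-1(e2141) and 33.4% to 34.5% in WT. Levels are counts per 1e6 fragments (CPM) after scaling by TMM factors, which were 1.041 to 1.15 in glp-1(e2141) and 0.859 to 0.989 in WT. All differences are log2 values of glp-1(e2141) minus WT, tested with edgeR's quasi-likelihood test and adjusted over all entries. In whole animals, fewer cells of a type and less RNA per cell cannot be told apart. The zero point of the differences depended on the scaling. The median over all 11198 entries tested was 0.26 with TMM factors, and 4 other scalings moved it to -0.73 at the lowest and 1.03 at the highest. A gene is therefore called higher or lower without further remark only where it passed in the same direction in all 5 scalings.

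Most of the transcriptome differed. Of the 11198 entries tested, 10154 passed an adjusted p of 0.05, or 90.7%. With TMM factors 5268 (47.0%) were higher and 4886 (43.6%) lower in glp-1(e2141). In all 5 scalings, 2188 (19.5%) were higher and 4035 (36.0%) lower. The groups did not overlap in CPM for 9125 entries, or 81.5%. Since nearly every entry passed, the size of a difference says more than its call. Changes of at least 8-fold were unequal in direction, with 269 entries higher (2.4% of those tested) and 2215 lower (19.8%). With the other scalings the number lower stayed between 1825 and 3010, while the number higher lay between 112 and 720.

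Of the 2215 entries at least 8-fold lower, 2185 lay outside the loci left out of fragment shares. These 2185 held 0.879% to 1.07% of the fragments of a glp-1(e2141) library, 0.981% to 1.29% in the doubles and 18.7% to 20.2% in WT. The separation of glp-1(e2141) from WT in this sum follows from how the entries were chosen. Over the 2215 entries the median of the mean levels, taken in each group separately, was 0.219 CPM in glp-1(e2141) and 31.2 CPM in WT. In glp-1(e2141), 869 of them (39.2%) averaged less than 0.1 CPM and 251 (11.3%) still averaged 10 CPM or more. Of the 2215, 181 were listed at 0 in all 5 glp-1(e2141) libraries. Set at a floor of 3 fragments per library, which is 0.156 CPM, 157 of these 181 were still at least 8-fold lower. Without any in the loci left out of shares, the 269 entries at least 8-fold higher were a small part of the RNA, with 1.11% to 2.1% of the fragments in glp-1(e2141) and 0.0732% to 0.109% in WT.

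**Figure D1:**
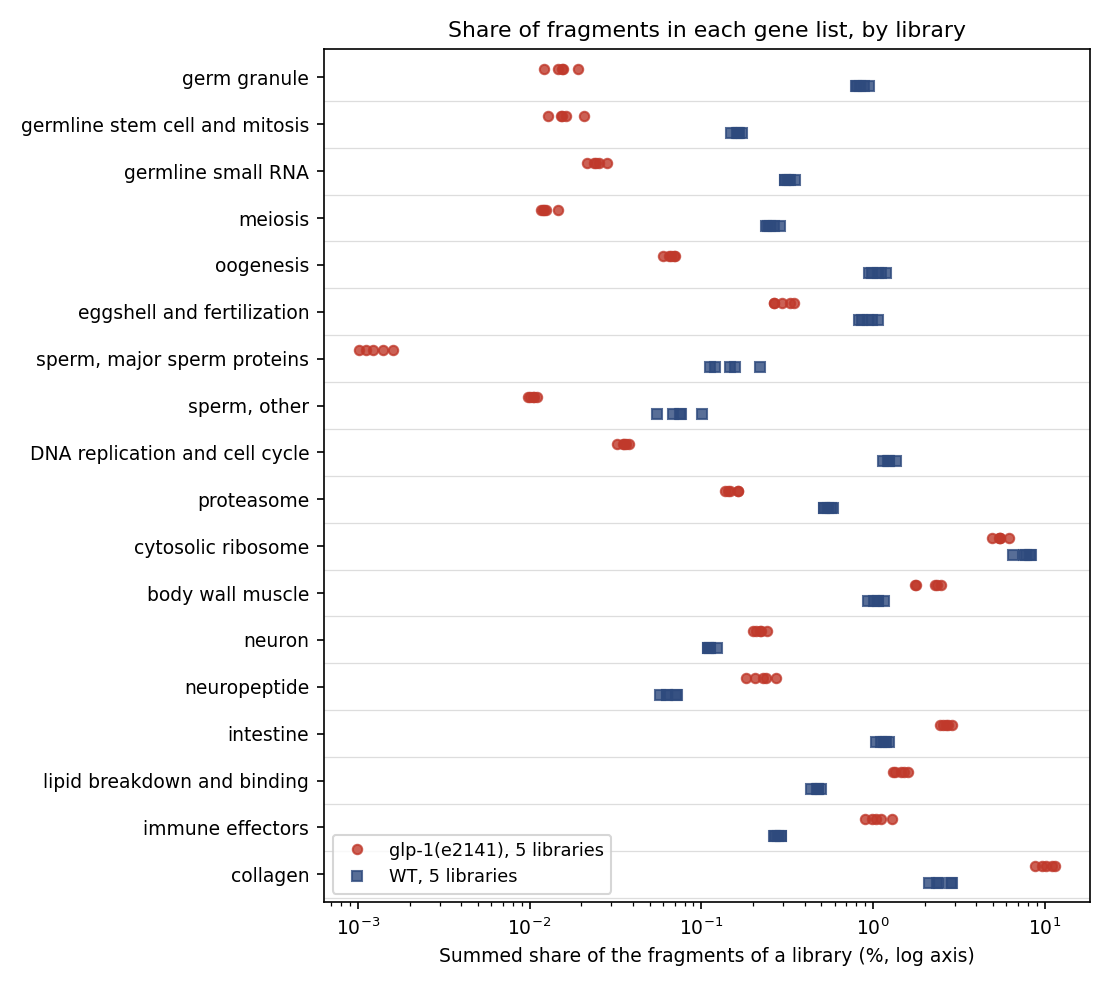
Summed share of the fragments of each library, in percent on a log axis, for 18 gene lists, with circles for the 5 glp-1(e2141) libraries and squares for the 5 WT libraries. Major sperm proteins sit between 0.00101% and 0.00161% in glp-1(e2141) and between 0.113% and 0.219% in WT, and collagens between 8.83% and 11.5% in glp-1(e2141) and between 2.12% and 2.91% in WT.

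Transcripts of germline genes fell steeply in glp-1(e2141). The 8 lists of germline genes, from stem cells to sperm and eggshell, together held 199 tested entries, of which 193 were lower and 6 higher with TMM factors. At least 8-fold lower were 170 of the 199, beside 19.8% of all entries tested. The median over the 199 was -6.93, beside 0.26 over all entries. The summed share of fragments was taken over 212 entries of these lists, tested or not. It was 0.401%, 0.485%, 0.5%, 0.398% and 0.438% in the 5 glp-1(e2141) libraries, 0.376% to 0.528% in the doubles, and 3.92%, 4.14%, 3.61%, 3.57% and 3.8% in the 5 WT libraries. The groups did not overlap. The eggshell list made up most of what remained in glp-1(e2141), with 0.264% to 0.347% of the fragments there and 0.833% to 1.07% in WT. Of its 21 tested members 5 were higher with TMM factors, so this remainder includes genes that did not fall.

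The receptor itself was among the genes that fell. The glp-1 gene (chromosome III, 9092172 to 9101181 in build ce10) had 18.8, 15.1, 16.5, 13.8 and 14.8 CPM in glp-1(e2141), against 235 to 276 CPM in WT, where the median was 260. The groups were far apart, with a log2 difference of -4.02 ± 0.1 (SE, adjusted p = 8.16e-13). The value in the doubles against WT was -4.17. The transcript is found mostly in germ cells and embryos, and e2141 is a point mutation, so this level does not check the genotype.

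Stem cell and mitotic regulators fell together. All 12 tested members were lower in all 5 scalings and 11 were at least 8-fold lower, with a median of -4.15. The Notch target sygl-1, which keeps stem cells from differentiating, had 1 fragment over all 5 glp-1(e2141) libraries, against 53.4 to 96.1 CPM in WT. The translational regulator gld-3 averaged 0.132 CPM in glp-1(e2141) and 277 CPM in WT. Some members kept a level: lag-1, the DNA-binding partner of Notch in many tissues, averaged 15.4 CPM in glp-1(e2141) and 150 CPM in WT, and the poly(A) polymerase gld-2 had 83.4 CPM in glp-1(e2141) and 331 CPM in WT.

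Germ granules, the RNA-rich bodies at the nuclei of germ cells, gave the lowest median of any germline list. All 14 tested components were at least 8-fold lower, with a median of -9.83. The scaffold protein gene pgl-1 (chromosome IV, 6974605 to 6977307) had 0, 0, 1, 4 and 0 fragments in the 5 glp-1(e2141) libraries, against 583 to 774 CPM in WT. The helicase gene glh-2 averaged 0.0104 CPM in glp-1(e2141) and 330 CPM in WT. The helicase cgh-1 and the Sm-like protein car-1, which also work in RNA bodies of embryos and somatic cells, kept the most. cgh-1 had 53.2, 72.6, 49.1, 39.2 and 61.1 CPM in glp-1(e2141), against 4210, 4490, 3610, 3540 and 3910 CPM in WT, a log2 difference of -6.17 ± 0.18 (adjusted p = 2.73e-12).

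Small RNA pathways of the germline were lower in all 19 tested members, 14 of them by at least 8-fold, with a median of -4.63. The Argonaute gene wago-1 averaged 2.94 ± 0.488 CPM in glp-1(e2141) and 1190 ± 163 CPM in WT (SD, n = 5 each). F21A3.5 (prde-1 in RefSeq), which is needed to make piRNA precursors, was listed at 0 in every glp-1(e2141) library and averaged 47.7 CPM in WT. The Piwi gene prg-1 averaged 47.4 CPM in glp-1(e2141) and 231 CPM in WT. Its close copy prg-2, annotated as a pseudogene, had 1 fragment over all 5 glp-1(e2141) libraries and averaged 332 CPM in WT, and how fragments were divided between the pair is not known.

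Transcripts of meiosis and cell division were much lower, and some members were close to 0. The meiosis list held 0.0116% to 0.0146% of the fragments in glp-1(e2141) and 0.238% to 0.289% in WT. The list of DNA replication and cell cycle held 0.0325% to 0.0378% in glp-1(e2141) and 1.14% to 1.36% in WT. Of 33 tested meiosis genes all were lower in all 5 scalings and 32 were at least 8-fold lower, with a median of -6.69. The axis protein genes htp-2 and him-3 averaged 0.0191 and 0.0372 CPM in glp-1(e2141), against 65.8 and 90.2 CPM in WT. The synaptonemal complex gene syp-4 had 0, 0, 1, 5 and 0 fragments in glp-1(e2141), against 157 to 182 CPM in WT. Of 64 tested genes of DNA replication and the cell cycle, 62 were lower in all 5 scalings and 58 were at least 8-fold lower, with a median of -6.02. The replicative helicase subunit mcm-2 had 4, 2, 4, 3 and 1 fragments in glp-1(e2141), against 334 to 528 CPM in WT. The mitotic kinase plk-1 averaged 0.158 CPM in glp-1(e2141) and 366 CPM in WT. The 2 members that were not lower in all scalings were cdk-4, partner of cyclin D, with 5.87 CPM in glp-1(e2141) and 11.8 CPM in WT, and the cell cycle inhibitor cki-1, with 6.19 CPM in glp-1(e2141) and 3.63 CPM in WT.

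Oocyte genes followed. All 36 tested members of the oogenesis list were lower with TMM factors, 34 of them in all 5 scalings, and 29 were at least 8-fold lower. Their median was -7.53. The yolk receptor gene rme-2 had 0.06, 0, 0.104, 0.0477 and 0 CPM in glp-1(e2141), against 1230, 1410, 910, 890 and 1100 CPM in WT. The RNA-binding regulators puf-5, puf-11 and spn-4 averaged 0.116, 0.0486 and 0.0673 CPM in glp-1(e2141), against 669, 488 and 421 CPM in WT. Polarity genes of the early embryo that also act in somatic epithelia kept more of their level, with par-3 at 62.9 CPM in glp-1(e2141) and 391 CPM in WT, and par-6 at 34 CPM in glp-1(e2141) and 76 CPM in WT. The yolk proteins taken up by oocytes could not be read, because all 5 vitellogenin entries are listed at 0 in every library.

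The eggshell list split. With TMM factors 16 of 21 tested members were lower and 5 higher, and all 16 were lower in every scaling. cbd-1, a chitin-binding protein of the vitelline layer, had 4, 5, 8, 5 and 3 fragments in glp-1(e2141), against 1800 to 3000 CPM in WT. The chondroitin proteoglycan gene cpg-2 averaged 0.353 CPM in glp-1(e2141) and 2350 CPM in WT. egg-4, which acts at the egg-to-embryo transition, was listed at 0 in all 5 glp-1(e2141) libraries and had 123 to 185 CPM in WT. The 2 members higher in all scalings were the proteoglycan genes cpg-7, with 90.5 CPM in glp-1(e2141) and 15.4 CPM in WT, and cpg-9, with 150 CPM in glp-1(e2141) and 55 CPM in WT. The lipid synthesis genes needed for the permeability barrier, fasn-1, pod-2 and emb-8, differed by 0.45 to 0.51, which changed sign with the scaling.

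Sperm transcripts fell as well. The hermaphrodite makes sperm as a larva, and what remains in an adult is stored. All 25 tested entries of the major sperm proteins, the cytoskeletal proteins of nematode sperm, were at least 8-fold lower, with a median of -7.41. The gene msp-57 had 2, 4, 7, 11 and 11 fragments in glp-1(e2141), against 125, 87.8, 169, 96.6 and 119 CPM in WT. These genes are near-identical copies, so single members are uncertain. Of 40 other sperm genes tested, 36 were lower in all 5 scalings and 34 were at least 8-fold lower, and 1, ssp-37, was higher, with 15.8 CPM in glp-1(e2141) and 4.81 CPM in WT.

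**Figure D2:**
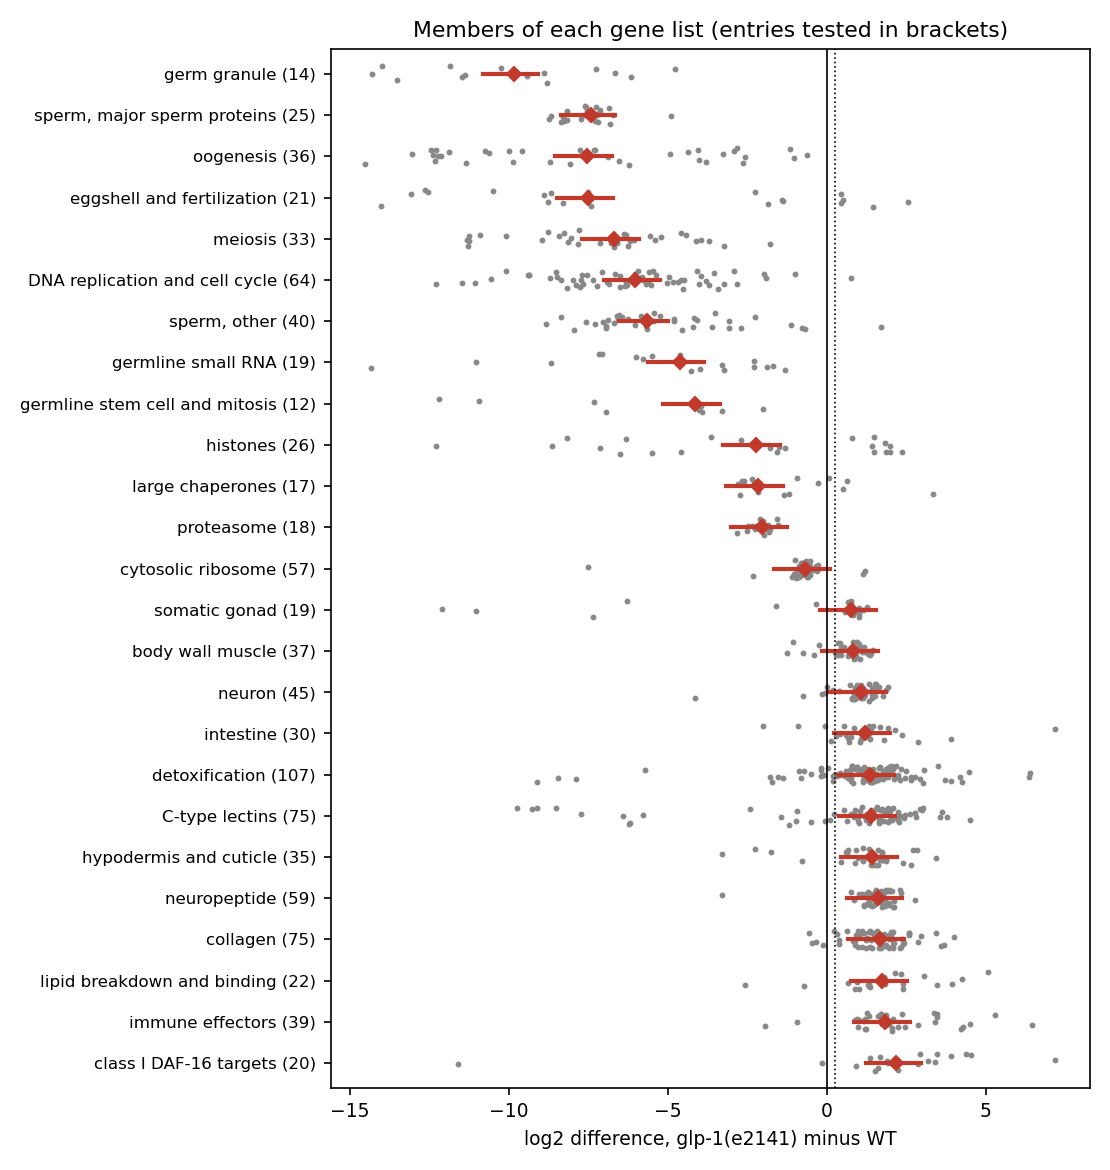
Each grey point is the log2 difference, glp-1(e2141) minus WT, of 1 tested entry in a gene list, the diamond is the median with TMM factors and the bar spans the medians under 5 scalings. Medians run from -9.83 for germ granule components to 2.18 for class I DAF-16 targets, the dotted line at 0.26 is the median of all entries, and entries listed at 0 in 1 group are not drawn.

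Several housekeeping families have 1 copy used in the germline and another used in the soma, and in several of these the copies differed in direction. The families below were picked after their values were seen. The ribosomal protein gene rpl-11.1 had 12.2, 11.9, 11.9, 14.9 and 11 CPM in glp-1(e2141), against 2470, 2570, 2110, 1820 and 2310 CPM in WT. Its paralog rpl-11.2 had 974, 1210, 1220, 1250 and 1180 CPM in glp-1(e2141), against 618, 558, 536, 384 and 536 CPM in WT. The log2 differences were -7.51 ± 0.15 for rpl-11.1 (adjusted p = 1.69e-13) and 1.15 ± 0.12 for rpl-11.2 (adjusted p = 1.24e-06), and the second shrank to 0.15 with TMM factors taken from somatic genes alone.

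Other families are given with their exceptions. The translation factor genes iff-1 and iff-2, both copies of eIF5A, averaged 2.36 and 445 CPM in glp-1(e2141), against 1290 and 207 CPM in WT, and the difference of 1.1 for iff-2 shrank to 0.11 with somatic TMM factors (adjusted p = 0.418). For the ribosomal protein pair rpl-25.2 and rpl-25.1 the means were 149 and 327 CPM in glp-1(e2141), against 742 and 142 CPM in WT, and the increase of rpl-25.1 did not pass with somatic TMM factors. Among subunits of respiratory complex III, ucr-2.3 was lower at 19.7 CPM in glp-1(e2141) and 266 CPM in WT. Its relative ucr-2.2 was higher at 205 CPM in glp-1(e2141) and 78.3 CPM in WT. A further relative, ucr-2.1, averaged 343 CPM in glp-1(e2141) and 170 CPM in WT. Its difference of 1.02 shrank to 0.02 with somatic TMM factors (adjusted p = 0.866). Among linker histones hil-4 and hil-5 were lower, at 0.0295 and 0.415 CPM in glp-1(e2141), against 184 and 168 CPM in WT, and hil-1 was higher, at 35.1 CPM in glp-1(e2141) and 9.51 CPM in WT. The linker histone hil-3 averaged 11.6 CPM in glp-1(e2141) and 4.34 CPM in WT. Its difference of 1.42 shrank to 0.39 with somatic TMM factors (adjusted p = 0.217). In the Y-box protein family both copies measured were lower with TMM factors, cey-3 at 0.377 CPM in glp-1(e2141) and 852 CPM in WT, and cey-4 at 407 CPM in glp-1(e2141) and 669 CPM in WT, though the difference of cey-4 reached 0.06 with upper quartile factors.

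The X chromosome stood out from the autosomes. In germ cells of C. elegans the X is largely silent, and genes expressed in the germline lie mostly on autosomes. Of 1804 tested entries on X, 78 (4.32%) were at least 8-fold lower, against 2137 of 9394 (22.7%) on the autosomes. Lower in all 5 scalings were 7.59% of entries on X and 41.5% on the autosomes. Chromosome I had the highest share at least 8-fold lower, 29.5%, and chromosome V the lowest of the autosomes, 14.7%. The share of all fragments that came from X was 18.4%, 18.2%, 17.6%, 17.4% and 17.9% in glp-1(e2141), 16.7% to 17.7% in the doubles, and 7.32%, 6.81%, 7.67%, 6.99% and 7.05% in WT. The groups did not overlap, with every glp-1(e2141) library far above every WT library. The median difference was 1.05 on X (0.07 to 1.83 over the 5 scalings) and -0.28 on the autosomes (-1.27 to 0.5). The autosomes were not alike in this. Chromosome V, with a median of 0.86, lay near X, while chromosomes I and III stood at -1.27 and -0.79. Higher in all 5 scalings were 26.4% of entries on X, 28.2% on chromosome V and 18.2% on the autosomes together.

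**Figure D3:**
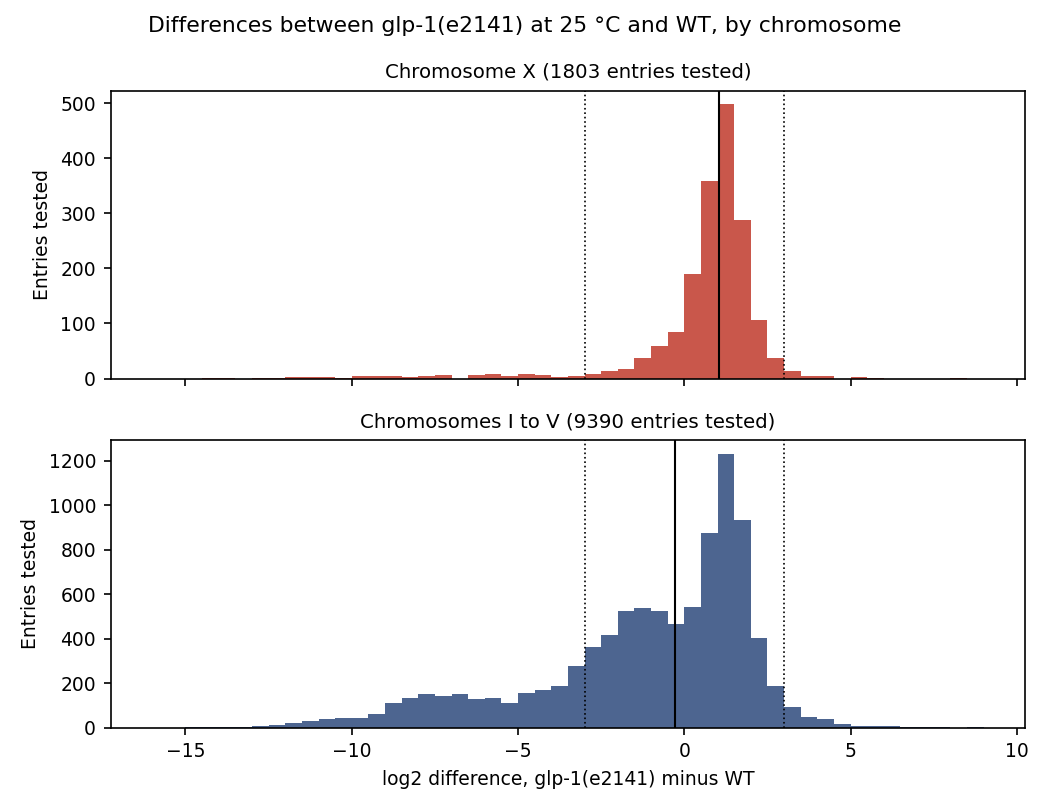
Number of tested entries by log2 difference, glp-1(e2141) minus WT, in bins of 0.5, for chromosome X above and chromosomes I to V below, with the median as a solid line and 8-fold changes as dotted lines. Most X entries form 1 peak around a median of 1.05, while the autosomes show a peak at a like place and a long tail to the left, with 2137 entries at least 8-fold lower.

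**Figure D4:**
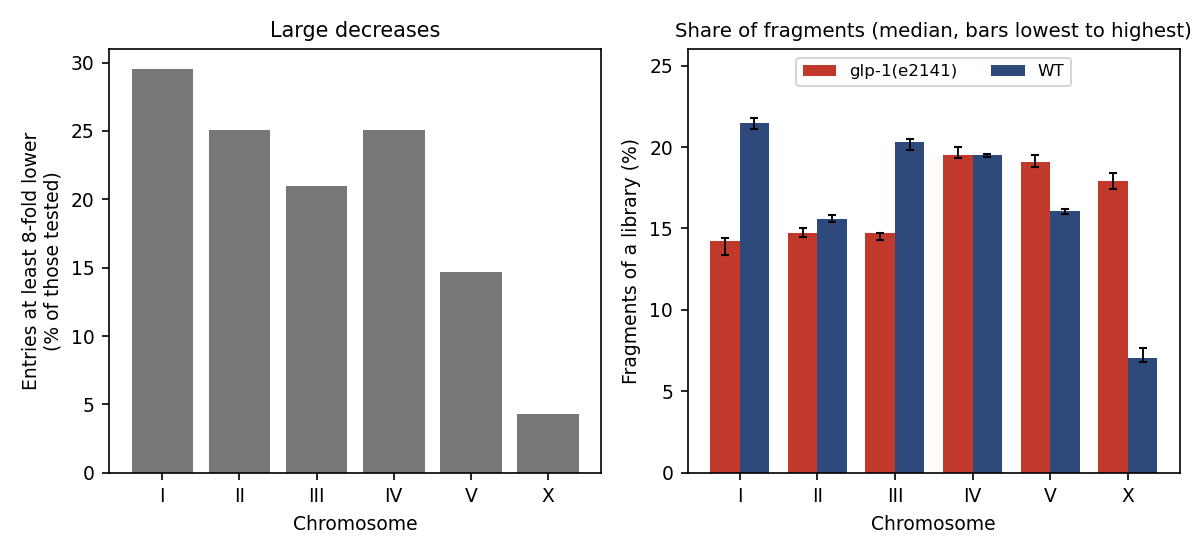
Left, percent of tested entries at least 8-fold lower in glp-1(e2141) by chromosome; right, median share of fragments by chromosome for glp-1(e2141) and WT, with bars from the lowest to the highest of 5 libraries. On X, 4.32% of entries were at least 8-fold lower and the fragment share was 17.4% to 18.4% in glp-1(e2141) and 6.81% to 7.67% in WT.

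Some genes that were at or near 0 in glp-1(e2141) still lay on X. The germ granule gene meg-1 had 0, 0, 1, 3 and 0 fragments in glp-1(e2141), against 149 to 214 CPM in WT. F02E8.4, whose role is not given here, was listed at 0 in all 5 glp-1(e2141) libraries and had 103 to 135 CPM in WT.

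Markers of the somatic gonad were mixed. With TMM factors 12 of 19 tested members of the somatic gonad list were higher and 7 lower, beside 47.0% and 43.6% of all entries. In all 5 scalings no member was higher and 6 were lower, beside 19.5% and 36.0% of all entries. Of the 19, 5 were at least 8-fold lower, beside 19.8% of all entries. The median of 0.77 lay between -0.22 and 1.54 over the 5 scalings. Sheath markers were present in both groups, with the transcription factor ceh-18 at 23.6 CPM in glp-1(e2141) and 10.7 CPM in WT, and lim-7 at 16.8 CPM in glp-1(e2141) and 9.44 CPM in WT. The members that fell most were inx-14, inx-22 and inx-21, gap junction subunits known from germ cells and their contacts with the sheath. They averaged 0.0299, 0.0568 and 0.305 CPM in glp-1(e2141), against 161, 143 and 52.6 CPM in WT. lin-3, the EGF signal of the anchor cell that is also made in the germline, averaged 12.2 ± 1.4 CPM in glp-1(e2141) and 102 ± 7.75 CPM in WT.

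Embryonic regulators were mixed. Only 13 of 34 list members passed the filter on low counts, 8 of them lower in all 5 scalings, beside 36.0% of all entries. The zygotic nuclear receptor nhr-2 averaged 0.00954 CPM in glp-1(e2141) and 13.2 CPM in WT, and the maternal Caudal homolog pal-1 11.4 CPM in glp-1(e2141) and 170 CPM in WT.

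Proteasome and folding genes, which every tissue uses, were lower as well. All 18 tested proteasome subunits were lower in all 5 scalings, beside 36.0% of all entries, with differences of -2.82 to -1.53 and a median of -2.03. The ATPase subunit rpt-2 had 80.4, 80.3, 53.3, 34.6 and 68.6 CPM in glp-1(e2141), against 467, 506, 415, 406 and 442 CPM in WT. The groups did not overlap for any of the 18, beside 81.5% of all entries. Of 17 large chaperones, 11 were lower in all 5 scalings, including the mitochondrial chaperonin hsp-60 (126 CPM in glp-1(e2141), 870 CPM in WT) and the cytosolic chaperonin subunits cct-1, cct-4, cct-6 and cct-7. The constitutive Hsp70 gene hsp-1 averaged 789 CPM in glp-1(e2141) and 4000 CPM in WT.

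Heat-inducible chaperones went the other way, with a wide spread. The small heat shock genes hsp-16.2 and hsp-16.41 had 5.53 to 53.3 CPM and 6.63 to 50.5 CPM in glp-1(e2141), against 0.189 to 2.94 CPM and 0.189 to 2.26 CPM in WT. The heat-inducible hsp-70 had 101, 23.5, 84.5, 6.39 and 28.9 CPM in glp-1(e2141), against 3.02, 1.99, 5.01, 8.38 and 5.68 CPM in WT, and here the groups overlapped. In all 3 genes replicates 0 and 2 of glp-1(e2141) were the highest and replicate 3 the lowest. One small heat shock gene behaved like a germline gene: sip-1, which is known from oocytes and embryos, averaged 0.149 CPM in glp-1(e2141) and 502 CPM in WT. The part of the culture at 25 °C in these values was not tested.

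Cytosolic ribosomal protein genes had no direction that survived the choice of scaling. With TMM factors 54 of 57 tested entries were lower, beside 43.6% of all entries, with a median of -0.68. Only 3 were lower in all 5 scalings, beside 36.0% of all entries, and the median reached 0.1 with upper quartile factors. The summed share of fragments of the list, tested or not, was 4.97% to 6.19% in glp-1(e2141) and 6.59% to 8.35% in WT.

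Genes of the cuticle, nerves, muscle and gut took up a larger share of the RNA in glp-1(e2141). For body wall muscle this share was 1.75% to 2.51% in glp-1(e2141) and 0.94% to 1.16% in WT, and for the intestine list 2.46% to 2.9% in glp-1(e2141) and 1.04% to 1.24% in WT. Relative to the median of all entries the muscle list stood 0.58 higher and the neuron list 0.83 higher. Their medians reached -0.15 and 0.07 in the lowest scaling. That scaling took its TMM factors from the muscle, pharynx, neuron, and hypodermis and cuticle lists, so it holds them near no difference by construction. In all 5 scalings 4 of 37 muscle and 11 of 45 neuron members were higher, beside 19.5% of all entries. These counts cannot decide whether the lists rose, because the lists set 1 of the scalings. The muscle gene tni-3, a troponin I, had 32.8 to 40.1 CPM in glp-1(e2141) and 11.5 to 16.3 CPM in WT.

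Lists that moved further than these tissue markers were collagens and neuropeptides. Of 75 tested collagen entries 30 were higher and none lower in all 5 scalings, beside 19.5% and 36.0% of all entries, with a median of 1.67. The spread within groups was wide for many of them. With TMM factors 18 of the 75 did not pass, where 90.7% of all entries did. The groups did not overlap for 32 of the 75, beside 81.5% of all entries. The adult cuticle collagen col-19 had 7770, 6630, 6660, 8650 and 5980 CPM in glp-1(e2141), against 2660, 2340, 2500, 1670 and 2240 CPM in WT. Of 59 tested neuropeptide entries 36 were higher in all 5 scalings and 1, nlp-4, was lower, beside the same shares, with a median of 1.6. The epidermal peptide gene nlp-33, which encodes an antimicrobial peptide, averaged 200 CPM in glp-1(e2141) and 28.9 CPM in WT, and the FMRFamide-like gene flp-1 20.7 CPM in glp-1(e2141) and 4.74 CPM in WT.

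A pair of neurotransmitter enzymes split. tdc-1, the tyrosine decarboxylase that makes tyramine, had 17.6, 24.4, 13, 12.9 and 15.3 CPM in glp-1(e2141), against 294, 348, 252, 273 and 292 CPM in WT. tbh-1, the hydroxylase that turns tyramine into octopamine, had 1300, 977, 872, 872 and 951 CPM in glp-1(e2141), against 288, 325, 241, 243 and 266 CPM in WT. Neither gene overlapped between the groups, with differences of -4.13 ± 0.18 (adjusted p = 9.31e-11) and 1.87 ± 0.13 (adjusted p = 1.28e-08). Both genes are known from a few neurons and from the gonadal sheath.

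Many immune effectors and genes of lipid breakdown rose. Of 39 tested antimicrobial effectors 26 were higher in all 5 scalings, beside 19.5% of all entries, and 1 was lower, with a median of 1.84. The lysozyme gene lys-2 had 1300, 597, 633, 1030 and 794 CPM in glp-1(e2141), against 43.2, 33.8, 58.6, 43.7 and 44.8 CPM in WT. lys-1, another lysozyme, averaged 1700 ± 343 CPM in glp-1(e2141) and 234 ± 21.6 CPM in WT. C-type lectins, a family of secreted binding proteins, divided into 35 of 75 higher in all 5 scalings and 10 lower, beside 19.5% and 36.0% of all entries. The lower ones include clec-79 and clec-91, which averaged 0.02 and 0.271 CPM in glp-1(e2141), against 22.8 and 174 CPM in WT.

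Of 22 genes of lipid breakdown and lipid binding, 15 were higher in all 5 scalings, beside 19.5% of all entries, with a median of 1.74. The lysosomal lipase genes lipl-5 and lipl-2 averaged 1580 and 34.7 CPM in glp-1(e2141), against 312 and 1.04 CPM in WT. icl-1, the enzyme of the glyoxylate cycle that lets animals make sugar from fat, had 951 to 2740 CPM in glp-1(e2141), against 137 to 336 CPM in WT. Other lipid lists were mixed: 5 of 22 fatty acid synthesis genes were higher and 3 lower in all 5 scalings, and 2 of 20 fatty acid oxidation genes were higher and 4 lower. Over all entries 19.5% were higher and 36.0% lower in all 5 scalings. The fatty acid desaturase genes fat-5, fat-6 and fat-7 divided. fat-5 and fat-6 averaged 202 and 1340 CPM in glp-1(e2141), against 46 and 537 CPM in WT. By contrast, fat-7 had 35.4, 95.9, 104, 64.5 and 95.6 CPM in glp-1(e2141), against 304, 287, 393, 296 and 288 CPM in WT. CELE_F59A1.10 (dgat-2 in RefSeq), for a last step of fat storage, averaged 124 CPM in glp-1(e2141) and 26.5 CPM in WT. The acyl-CoA dehydrogenase gene acdh-8 and the elongase gene elo-8 fell to 0.102 and 0.00906 CPM in glp-1(e2141), against 41.1 and 6.24 CPM in WT.

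Detoxification genes were higher in all 5 scalings in 47 of 107 tested members and lower in 7, beside 19.5% and 36.0% of all entries, with a median of 1.35. gst-29, a glutathione transferase, averaged 22.8 CPM in glp-1(e2141) and 1.02 CPM in WT. The cytochrome P450 genes cyp-31A2 and cyp-31A3, which are known to act in making the eggshell, fell to 0.237 and 0.314 CPM in glp-1(e2141), against 140 and 79.7 CPM in WT. They are near-identical copies.

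The largest increases over all entries included immune and stress genes. mtl-1, a metallothionein, had 280, 108, 78.1, 102 and 94.8 CPM in glp-1(e2141), against 0.771, 1.37, 0.401, 1.25 and 0.797 CPM in WT. The reporter gene of the p38 immune pathway, T24B8.5 (sysm-1), had 298, 61.5, 68.5, 128 and 111 CPM in glp-1(e2141), against 0.637 to 1.34 CPM in WT. CELE_F35E12.5 (irg-5), an infection response gene, had 175 to 421 CPM in glp-1(e2141), against 2.17 to 3.54 CPM in WT. In all 3 genes replicate 0 of glp-1(e2141) was the highest, and the groups were far apart without it.

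Some of the 12 largest increases rest on values at or near 0 in WT. T12D8.5 was listed at 0 in all WT libraries and had 22.3 to 64.1 CPM in glp-1(e2141). ubc-12, which encodes an enzyme that attaches the ubiquitin-like protein NEDD8, had 3 fragments over all WT libraries and 41 to 45.8 CPM in glp-1(e2141). Its locus holds another entry, naming mag-1 and 4 further genes, which averaged 2594 fragments in glp-1(e2141) and 48983 in WT. How fragments were divided between these entries was not tested.

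The doubles place these changes beside animals that share the allele, the temperature and the block of library numbers and differ in daf-16. Between glp-1(e2141) and the mean of its doubles, 522 of 10391 tested entries passed (5.02%), with 354 higher (3.41%) and 168 lower (1.62%). The count was 319 without replicate 0 of glp-1(e2141), 331 without its replicate 4 and 841 without replicate 3 of daf-16(mu86);glp-1(e2141), and DESeq2 gave 879. The comparison of the doubles with WT had 10615 of 11545 (91.9%), with 49.6% higher and 42.3% lower, and 2130 entries (18.4%) were at least 8-fold lower and 2.45% at least 8-fold higher. It shares the WT libraries with the main comparison, so values are set side by side only. At least 8-fold higher in glp-1(e2141) than in the doubles were 23 entries (0.221%), and 1 (0.00962%) was at least 8-fold lower. The germline lists overlapped between these strains: the summed share of all 8 of fragments was 0.398% to 0.5% in glp-1(e2141) and 0.376% to 0.528% in the doubles, and the median difference was -0.04 over 8 tested stem cell genes, -0.2 over 20 tested meiosis genes and -0.07 over 57 tested genes of DNA replication and the cell cycle.

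**Figure D5:**
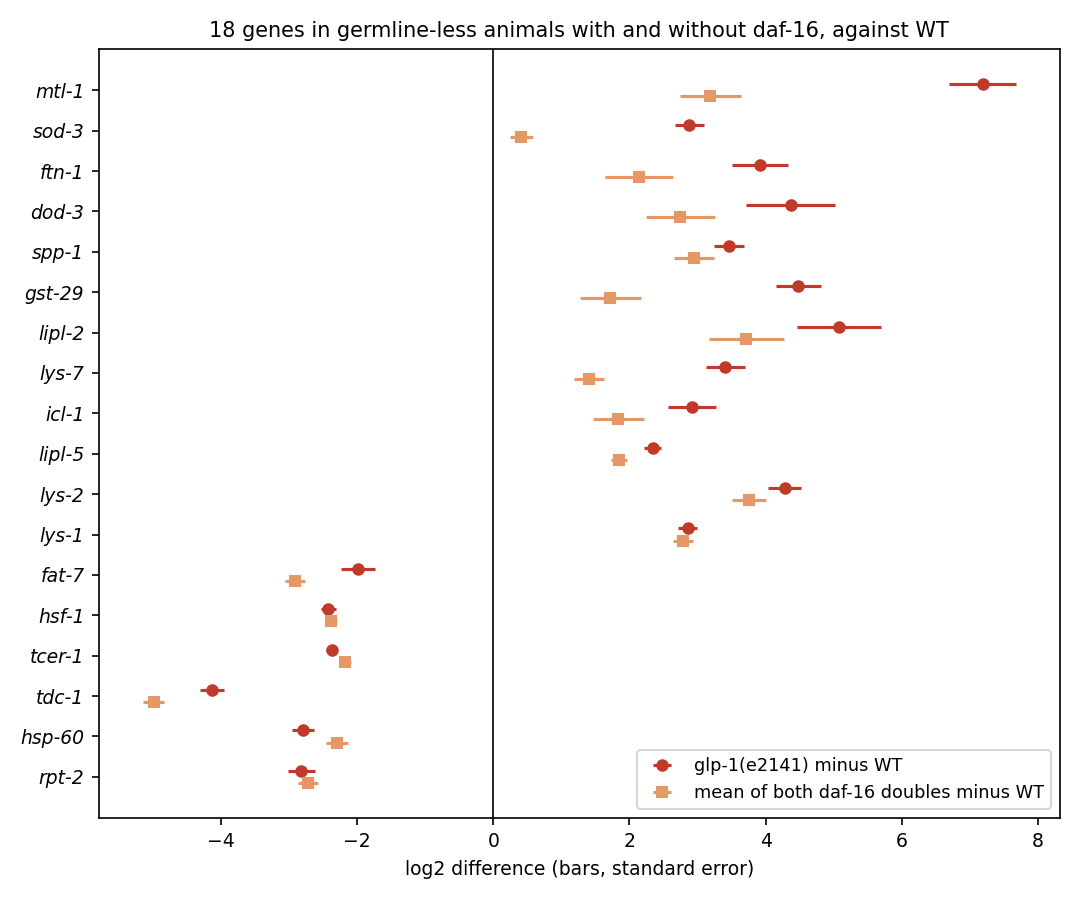
Log2 differences from WT of 18 genes in glp-1(e2141) (circles) and in the mean of both daf-16 doubles (squares), with standard errors. sod-3 stood at 2.88 in glp-1(e2141) and 0.41 in the doubles, lys-1 at 2.86 in glp-1(e2141) and 2.79 in the doubles, and hsf-1 at -2.42 in glp-1(e2141) and -2.38 in the doubles.

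Class I DAF-16 targets, genes that DAF-16 activates, had a median of 2.18 against WT and 1.3 in the doubles against WT. Of 20 tested members 16 were higher in all 5 scalings, beside 19.5% of all entries. The 1 member lower in all 5 scalings, beside 36.0% of all entries, was sip-1, at -11.61. The list was drawn from studies of DAF-16 and earlier results of these libraries were known when it was made. Between glp-1(e2141) and the doubles 11 of 19 tested members were higher, beside 3.41% of all entries. The mitochondrial superoxide dismutase gene sod-3 had 32.1, 31.2, 17.9, 22.8 and 19.8 CPM in glp-1(e2141), against 3.39, 3.97, 2.6, 4 and 2.79 CPM in WT. Its difference from the doubles was 2.49 ± 0.16 (adjusted p = 2.24e-07), close to the 2.88 ± 0.21 from WT. mtl-1 differed by 4.01 ± 0.38 from the doubles (adjusted p = 1.44e-05), and the doubles still stood 3.19 above WT. The lysozyme gene lys-7 differed by 2.03 ± 0.26 from the doubles (adjusted p = 0.000264).

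Other genes that were high in glp-1(e2141) were also high in the doubles. The difference between glp-1(e2141) and the doubles was 0.09 ± 0.14 for lys-1 (adjusted p = 0.817) and 0.54 ± 0.22 for lys-2 (adjusted p = 0.21). For irg-5 it was -1.67 (adjusted p = 0.00234), so the doubles were higher. Collagen entries had a median difference of -0.55 between glp-1(e2141) and the doubles. They were higher in 3 of 91 tested members, near the 3.41% of all entries. The proteasome median stood at -2.03 in glp-1(e2141) against WT and at -2.01 in the doubles against WT.

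Regulators tied to the long life of germline-less animals showed mixed levels. tcer-1, a cofactor of DAF-16 in these animals, had 50.4, 45.4, 48.5, 43 and 52.6 CPM in glp-1(e2141), against 250, 270, 233, 236 and 249 CPM in WT. hsf-1, the heat shock factor, averaged 26.3 ± 3.66 CPM in glp-1(e2141) and 140 ± 12.5 CPM in WT. Both were lower in all 5 scalings, at -2.37 and -2.42, and in the doubles against WT at -2.18 and -2.38. The adaptor kri-1 and the transcription factor pha-4 were higher in all 5 scalings, with 8.02 and 14.4 CPM in glp-1(e2141), against 2.44 and 4.39 CPM in WT. daf-16 itself averaged 185 ± 33.1 CPM in glp-1(e2141) and 233 ± 6.6 CPM in WT, a difference of -0.34 ± 0.11 (adjusted p = 0.0119) that changed sign with the scaling, at -1.33 to 0.45.

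Genes of steroid signalling, which passes the germline signal to DAF-16, had a median 0.59 above that of all entries. Of 9 tested members 6 were higher with TMM factors, beside 47.0% of all entries. In all 5 scalings 1 was higher, beside 19.5% of all entries. It was the sterol transporter gene ncr-1, with 91.3 CPM in glp-1(e2141) and 24.9 CPM in WT. The nuclear receptor daf-12 averaged 64.5 CPM in glp-1(e2141) and 31.3 CPM in WT, and the cytochrome P450 daf-9, which makes its ligand, 6.16 CPM in glp-1(e2141) and 2.22 CPM in WT. Neither of these passed when TMM factors were taken from somatic genes alone.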

How the data were processed

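The deposited table holds estimated counts of fragments, not scaled, for 34207 gene entries in 50 libraries, and the submitters' processing notes name TopHat2 2.0.9 with Bowtie2 2.1.0, Cuffdiff 2.1.1 with Cufflinks, cutadapt and FastQC 0.10.1, and genome build ce10. Where 1 gene at 1 locus had several entries (849 entries at 414 pairs), their values were added, and 314 entries that name no gene, with 0.197% to 0.467% of the fragments of the 10 libraries, stayed out. Rounding to whole numbers came first: 72.2% of the values above 0 were within 0.02 of one. Current names come from RefSeq WBcel235, matched for 28613 of 28970 single-gene entries. No source used here gives the strand setting, and reads from antisense or overlapping genes cannot be separated.

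An exact 0 can be a failed estimate. Loci at 0 in every library of 1 group while the other averaged at least 10000 fragments were left out: 6 loci with 518 entries, 4 at 0 in WT and 2 at 0 in glp-1(e2141), among them the locus of col-93. Another 7929 loci were at 0 in all 10 libraries. Summed shares of fragments left out 12 loci with 938 entries, by the same rule over all strains of the series. The shares of lists include entries that were not tested. A gene listed at 0 has no fold. Differences were fitted with edgeR 4.0.16 (R 4.3.3) by the quasi-likelihood test on the 5 glp-1(e2141) and 5 WT libraries alone, after edgeR's filter on low counts, with Benjamini-Hochberg adjustment over all entries. The 15 libraries at 25 °C, and the doubles with WT, were fitted separately in the same way. The fit was tested on simulated data. Alternatives were DESeq2 1.42.0, limma 3.58.1, 4 other scalings, other filters and locus minimums, a replicate block, more libraries, and each library left out. Somatic TMM factors were taken from the lists body wall muscle, pharynx, hypodermis and cuticle, and neuron. Floors cover counting error only. The values after ± (SE or SD) and the p-values measure the spread between these samples. Libraries of 1 group differed by more than counting noise, with a chi-square per degree of freedom of 11.9 to 98 over 20 pairs.

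The 39 gene lists and the genes named were chosen with earlier results of these data known. Up to 4 examples per list are those with the largest difference among single-gene entries that passed, did not overlap between groups and averaged at least 5 CPM in 1 group. Also named were the 12 largest increases and decreases at 20 CPM or more and the 10 most abundant entries at least 8-fold lower, or 4-fold higher. Genes listed at 0 in 1 group are placed in these rankings by a fitted value that is no fold. Other genes were picked after their values were seen. Lists are described by counts and medians, with no test of a list. No sequences are shown.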

Additional observations from a re-analysis of the deposited data

Results flagged for a closer look

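In each group of 5 libraries the highest and lowest value were set against the others, and 44 values over 424 groups lay apart by more than a gap of 0.71 of the group's range. Chance gives about 1 in 20 groups. Many were in genes near 0 in glp-1(e2141), where 1 library held a few fragments.

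Replicate 3 of glp-1(e2141), the library of that strain with the most fragments, was highest, in CPM, for gld-3 (0.286), pgl-3 (0.0954), pgl-1 (0.191), htp-2 (0.0954), zim-3 (0.0954), syp-4 (0.238), puf-11 (0.191), egg-1 (0.143), ssp-35 (0.143), cyb-2.2 (0.191), cyb-2.1 (0.382), nhr-2 (0.0477), inx-22 (0.238) and F22B3.4 (0.286). It was also highest for the lysozyme gene lys-3, at 72.1 CPM, with the others at 2.66 to 13.7 CPM. Replicate 2 held the only fragments of sygl-1, glh-2 and CELE_Y18D10A.11 (0.0522 CPM each), replicate 0 those of prg-2 (0.06 CPM), and replicate 4 those of elo-8 (0.0453 CPM) and clec-123 (0.136 CPM).

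Replicate 0 of glp-1(e2141) stood apart for well-expressed genes. It was highest for mtl-1 (280 CPM), lys-8 (917 CPM), spp-1 (230 CPM), T24B8.5 (298 CPM), swt-6 (148 CPM), tbh-1 (1300 CPM), brp-1 (1970 CPM), col-101 (9050 CPM), col-95 (1030 CPM) and col-158 (64.3 CPM), and lowest for rpl-11.2 (974 CPM). Replicate 1 was highest for pal-1 (15.6 CPM), hsp-60 (178 CPM), asm-3 (70.8 CPM) and the meiosis share of fragments (0.0146%), and replicate 4 lowest for cct-6 (63.8 CPM) and cct-4 (85.2 CPM).

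Among the WT libraries replicate 2 was highest for fat-7 (393 CPM) and elo-8 (11.3 CPM). Replicate 3 of WT was highest for hsp-16.41 (2.26 CPM), C16C8.16 (67.4 CPM) and the neuron share of fragments (0.123%), and replicate 1 of WT held the only ubc-12 fragments (0.142 CPM).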

How the results depend on the processing

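The number of entries that passed between glp-1(e2141) and WT was 10154 and lay between 8239 and 11376 under the alternatives tried, and the number at least 8-fold lower lay between 1825 and 3010, beside 2215. Scaling decided the balance: of the calls, 48.1% were lower with TMM factors, 53.7% with RLE factors, 38.7% with upper quartile factors, 44.8% with library totals and 73.4% with TMM factors from somatic lists, which left 2188 entries higher in place of 5268. These scalings moved the median of all entries by -0.35, 0.78, 0.27 and -0.99. Entries at least 8-fold higher numbered 269, and 720 with upper quartile factors, 112 with somatic TMM factors, 501 with no filter, 461 with no locus left out and 543 with all 50 libraries in 1 fit. Leaving out 1 library at a time gave 10039 to 10339 calls, 5163 to 5344 higher, 4867 to 5000 lower, 253 to 318 at least 8-fold higher and 2225 to 2321 at least 8-fold lower. Between glp-1(e2141) and the doubles the count of 522 became 879 with DESeq2 and 272 with the replicate block, and leaving out 1 library gave 319 (without glp-1(e2141) replicate 0) to 841 (without daf-16(mu86);glp-1(e2141) replicate 3), with 331 without glp-1(e2141) replicate 4. Between the doubles and WT, leaving out 1 library gave 10498 to 10826, beside 10615, with 10192 from DESeq2, 10181 with RLE factors and 12035 with no filter. Replicate numbers did not pair the libraries. Deviations of same-numbered libraries of glp-1(e2141) and WT correlated at -0.131 to 0.266, 1 of 5 over 0.1, and those among the 3 strains at 25 °C at -0.396 to 0.682, 1 of 15 over 0.1. In each set 1 library correlated best with its own number. With the replicate block 10070 entries passed against WT. The named gene daf-16 turned positive with upper quartile factors (0.45, adjusted p = 0.00454) and with all 50 libraries (0.04, adjusted p = 0.728). Except where construction shows it, the cause was not tested. Depth limits what can be said of germline transcripts in glp-1(e2141), where 3 fragments per library are 0.156 CPM.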

Other observations

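Of 26 tested histone entries 15 were lower and 6 higher in all 5 scalings, beside 36.0% and 19.5% of all entries, and 12 were at least 8-fold lower, beside 19.8%. The sperm-enriched histone H2A variant htas-1 averaged 0.113 CPM in glp-1(e2141) and 17.8 CPM in WT. nasp-2, a relative of histone chaperones, averaged 0.702 CPM in glp-1(e2141) and 1150 CPM in WT. Replication-dependent histone messages carry no poly(A) tail, so their level in libraries of polyadenylated RNA is no measure of their abundance.

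Lysosomal and vesicle genes moved in both directions. The lysosomal channel gene cup-5 averaged 29.5 CPM in glp-1(e2141) and 122 CPM in WT, while nuc-1, a DNase of lysosomes, averaged 265 CPM in glp-1(e2141) and 82.7 CPM in WT. T12G3.1 (sqst-1), an autophagy receptor, averaged 111 CPM in glp-1(e2141) and 34.5 CPM in WT. Insulin-like peptide genes were higher in all 5 scalings in 5 of 13 tested members and lower in 1, beside 19.5% and 36.0% of all entries. ins-7, an insulin-like peptide of the gut, averaged 20.9 ± 7.5 CPM in glp-1(e2141) and 2.8 ± 1.14 CPM in WT (SD, n = 5 each).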
